A study of Mus musculus with 12 samples.

Results

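The effect of culture on the large intestinal (LI) epithelium was read from 6 of the 12 RNA sequencing libraries of the series, 3 of freshly isolated murine LI crypts (called LI tissue) and 3 of LI monolayers cultured for 24 h. Members were chosen by group label alone, and all 19581 of 55487 listed genes that passed edgeR's expression filter were compared. Both groups came from C57BL/6 mice, and no drug treatment is named for either. Each LI tissue library is 1 mouse, and each monolayer library pools wells, so the groups differ in their unit of replication as well as in preparation. LI crypts were released with collagenase D, dispase and DNase, and were seeded on Matrigel in medium with Wnt3a, EGF, R-spondin-1, the BMP receptor inhibitor LDN-193189, the GSK3 inhibitor CHIR-99021 and the ROCK inhibitor Y-27632, which was then replaced by medium with Wnt3a, EGF, Noggin and R-spondin-1. The medium, the substrate, the time in culture and the loss of the surrounding tissue therefore cannot be told apart in this comparison. The matching 6 small intestinal (SI) libraries entered the same model and serve below only to test whether an LI effect differed from that in SI. Libraries held 59016196 to 76216530 counts, at which 3 counts, the limit that a count of 0 allows, are 0.039 to 0.051 CPM (counts per 1000000 counts).

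The epithelium of the large intestine is a sheet folded into crypts. Stem cells at the crypt base divide under Wnt and EGF receptor signals, their progeny proliferate in the lower crypt, and absorptive colonocytes, mucus-producing goblet cells, hormone-producing enteroendocrine cells and chemosensory tuft cells mature on the way to the surface, where BMP signals are high. Surface colonocytes take up sodium, chloride and short-chain fatty acids, burn the latter in their mitochondria, and carry enzymes that modify and export foreign compounds. After injury, the epithelium is known to switch on a fetal-like set of genes together with targets of the transcriptional coactivator YAP.

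All values below are CPM on library sizes scaled by edgeR's TMM method, in the order of replicates 1, 2 and 3. Log2 fold changes are LI monolayers over LI tissue, with the standard error (SE) of edgeR's quasi-likelihood fit. Genes are called higher or lower, or said to have risen or fallen, where the Benjamini-Hochberg adjusted p was under 0.05 and the change was 1 or more on the log2 scale in either direction. Of the 205 genes read in detail, 185 were called, with adjusted p-values from edgeR between 9.34e-17 and 0.0131, and in none of those 185 did the 2 groups of libraries overlap. Many of the 205 were chosen because they were called or did not overlap, so these counts follow in part from the choice. Over all tested genes, 38.0% were called and 73.0% had no overlap. Nothing in the labels says that the libraries of a group came from separate cultures, so for monolayers the p-values may measure technical spread only. Reads of near-identical family members (Cyp2c, Ces, H2, Gbp, Gsdmc, Reg3 and haemoglobin genes among those named) may be divided unevenly, and without knowledge of strand use, overlapping genes cannot be separated.

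The labelled tissue was checked by its markers. Epcam, the pan-epithelial adhesion molecule, held 1881, 1831 and 1958 CPM in tissue and 1426, 1408 and 1373 CPM in monolayers. Villin (Vil1), of the microvillus core, held 1037, 1043 and 911 CPM in tissue and 934, 969 and 978 CPM in monolayers, and the 2 groups overlapped. Keratin 8 (Krt8) held 10882, 10872 and 11217 CPM in tissue and 14492, 14119 and 14436 CPM in monolayers. The epithelial markers were thus abundant on both sides. Of the colonic markers, Slc26a3, the chloride-bicarbonate exchanger of colonocytes, held 637, 507 and 627 CPM in tissue and 160.4, 161 and 184 CPM in monolayers. The distal homeobox gene Hoxb13 held 325, 279.9 and 462 CPM in tissue and 46.8, 47.6 and 45.0 CPM in monolayers. The small intestinal gene Fabp6, of ileal bile acid binding, held 8.38, 12.8 and 10.02 CPM in tissue and 0.0290, 0.307 and 0.206 CPM in monolayers (log2 fold change -5.88, or -6.52 without monolayer library 2). Lyz1 of Paneth cells held 24.6, 11.8 and 7.32 CPM in tissue and 24.4, 29.3 and 29.8 CPM in monolayers, and the disaccharidase Sis held 24.7, 9.03 and 2.82 CPM in tissue and 13.1, 26.3 and 21.2 CPM in monolayers. For Lyz1 and Sis the groups overlapped, and LI tissue 1 was the highest tissue library. Without that library, Lyz1 and Sis were called higher in monolayers (log2 fold changes 1.54 and 1.77). Acta2, a smooth muscle actin of mesenchymal cells, held 11.5, 2.28 and 1.54 CPM in tissue and 2.87, 3.71 and 2.78 CPM in monolayers, and without LI tissue 1 its log2 fold change turned from -0.71 to 0.71. Slc26a3 and Hoxb13 were thus present in both groups, at lower levels in monolayers.

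Promoters of 5 genes from the groups described below are shown because each holds the letters of a motif known for the regulation of its group: E2F and CHR sites for the cell cycle, sterol response elements for cholesterol synthesis, the ISRE for interferon response and AP-1 sites for growth and injury signals. The sequences are those of RefSeq's table for GRCm38.p6, from 250 bases before to 50 after the annotated start, and capitals mark the motif on either strand. Mcm3, of the replicative helicase, lies at chr1:20820263-20820562 on the minus strand and holds E2F sites (TTTGGCGC, TTTCCCGC, TTTCGCGC or TTTGCCGC). Ccnb2, cyclin B2 of mitosis, lies at chr9:70421505-70421804 on the minus strand and holds the CHR element (TTTGAA). Hmgcs1, of cholesterol synthesis, lies at chr13:119690101-119690400 on the plus strand and holds a sterol response element (TCACNCCAC). Ifit1, an interferon-induced gene, lies at chr19:34640639-34640938 on the plus strand and holds the interferon-stimulated response element (ISRE). Il1rn, the interleukin 1 receptor antagonist, lies at chr2:24336610-24336909 on the plus strand and holds an AP-1 site (TGACTCA). Ifit1 and Il1rn were picked after their values were seen.
Mcm3: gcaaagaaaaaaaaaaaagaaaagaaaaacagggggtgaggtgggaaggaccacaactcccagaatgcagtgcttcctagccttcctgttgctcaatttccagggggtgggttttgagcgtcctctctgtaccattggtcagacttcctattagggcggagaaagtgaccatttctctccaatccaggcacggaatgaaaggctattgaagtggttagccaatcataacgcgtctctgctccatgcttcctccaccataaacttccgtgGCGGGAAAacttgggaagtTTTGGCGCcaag
Ccnb2: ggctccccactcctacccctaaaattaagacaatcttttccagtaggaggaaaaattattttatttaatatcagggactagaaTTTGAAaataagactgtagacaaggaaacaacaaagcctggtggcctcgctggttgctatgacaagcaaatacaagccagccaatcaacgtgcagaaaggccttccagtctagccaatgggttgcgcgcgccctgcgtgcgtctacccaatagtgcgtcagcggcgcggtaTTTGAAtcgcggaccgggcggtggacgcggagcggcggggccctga
Hmgcs1: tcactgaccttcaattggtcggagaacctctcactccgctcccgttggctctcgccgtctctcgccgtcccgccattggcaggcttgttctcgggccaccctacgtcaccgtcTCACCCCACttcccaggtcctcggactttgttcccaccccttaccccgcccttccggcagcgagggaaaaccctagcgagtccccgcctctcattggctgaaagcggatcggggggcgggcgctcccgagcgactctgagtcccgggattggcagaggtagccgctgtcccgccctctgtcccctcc
Ifit1: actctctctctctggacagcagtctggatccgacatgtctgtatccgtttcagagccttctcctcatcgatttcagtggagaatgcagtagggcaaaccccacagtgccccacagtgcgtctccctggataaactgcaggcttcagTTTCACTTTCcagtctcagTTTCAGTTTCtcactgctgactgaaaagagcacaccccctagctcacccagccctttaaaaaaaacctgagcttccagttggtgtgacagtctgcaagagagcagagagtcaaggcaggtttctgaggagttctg
Il1rn: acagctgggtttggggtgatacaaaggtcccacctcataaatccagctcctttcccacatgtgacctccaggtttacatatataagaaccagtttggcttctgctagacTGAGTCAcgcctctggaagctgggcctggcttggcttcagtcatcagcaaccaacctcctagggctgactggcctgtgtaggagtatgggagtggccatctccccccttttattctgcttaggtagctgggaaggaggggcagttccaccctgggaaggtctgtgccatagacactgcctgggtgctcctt

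Of all 27025 promoters of the table, 2.32% held an E2F site, 18.1% a CHR element, 1.22% a sterol response element, 3.49% an ISRE and 5.17% an AP-1 site. Among the 12623 promoters of tested genes, these shares were 3.72%, 12.8%, 1.13%, 3.18% and 4.14% in the same order. Among called genes of the lists described below that had a promoter in the table, an E2F site stood in 4 of 10 DNA replication genes called higher, a CHR element in 4 of 5 mitosis genes called higher, a sterol response element in 1 of 9 cholesterol synthesis genes called lower, an ISRE in 12 of 16 interferon-stimulated genes called lower and an AP-1 site in 6 of 19 fetal-like repair and YAP target genes called higher. Ccnb2, printed above for its CHR element, was called lower and is not among those 5 mitosis genes. A match of letters is a description and not a bound site. The motif shares were not tested.

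Culture changed the LI transcriptome widely, and more genes fell than rose. Of the 19581 genes tested, 7442 (38.0%) were called, 2832 (14.5%) higher and 4610 (23.5%) lower in monolayers, while 14287 (73.0%) had no overlap between the groups of libraries. With trends against GC content and length removed, the split moved to 3626 higher and 3863 lower. Large changes were mostly falls: 503 genes rose and 1561 fell at least 8-fold. Given this background, a gene list is described by how many of its members were called in each direction and by its median, beside a median of -0.05 over all tested genes. The lists were written with earlier results of these data known, so their counts may follow in part from the choice of members.

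Among the largest rises in abundant protein-coding genes, loricrin (Lor), a main protein of the cornified envelope of skin, held 1.37, 0.610 and 1.14 CPM in tissue and 495, 552 and 714 CPM in monolayers (log2 fold change 9.14, SE 0.34). Aldh1a3, which makes retinoic acid, held 4.19, 1.604 and 2.74 CPM in tissue and 871, 848 and 782 CPM in monolayers (log2 fold change 8.20, SE 0.39). Both genes were under 5 CPM in every tissue library. The sodium-hydrogen exchanger gene Slc9a4 held 0.673, 0.543 and 0.391 CPM in tissue and 234, 227 and 220.4 CPM in monolayers. Fam20c, a kinase of secreted proteins, held 0.511, 0.398 and 0.417 CPM in tissue and 100.3, 103 and 96.8 CPM in monolayers (log2 fold change 7.82, SE 0.13, adjusted p = 1.38e-16 by edgeR). The transglutaminase gene Tgm7 held 0.0807, 0.278 and 0.104 CPM in tissue and 43.1, 40.9 and 43.4 CPM in monolayers. The GPI-anchored Psca held 0.242, 0.0795 and 0.104 CPM in tissue and 32.0, 36.0 and 35.8 CPM in monolayers. Tgm7 was highest in tissue library 2 and Psca in tissue library 1, without which their log2 fold changes were 8.81 and 8.525. Calcb, a calcitonin gene-related peptide at chr7:114718643-114723365, had 4 counts in all LI tissue libraries together against 4947 in monolayers, a ratio of 1432-fold (95% interval 559 to 5259). For Dynap, a dynactin-associated protein, the pooled ratio was 841-fold (95% interval 457 to 1754). Such intervals, here and below, are exact for the deposited counts and cover counting error only. In the LI libraries 74.0 to 77.4% of low counts (20 or fewer) were even, so both mates of a pair may have been counted and the intervals may be too narrow. All 4 tissue counts of Calcb lay in library 1, without which its fitted log2 fold change moved from 10.35 to 13.76, a value against 0 counts that is no bound. For Dynap it moved from 9.66 to 10.37 without the same library. The last of the 12 largest rises were Arhgap40 (8.50), the intestinal hormone gene Fgf15 (7.58) and Klrg2 (7.51).

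The largest falls were in enzymes, channels and defence genes. Sult1a1, a phenol sulfotransferase at chr7:126672865-126676432, held 283, 265 and 288 CPM in tissue and 0.174, 0.0342 and 0.147 CPM in monolayers, a pooled ratio of 2270.0-fold (95% interval 1526 to 3544). Nox1, the epithelial NADPH oxidase of the colon, held 150.2, 144 and 154 CPM in tissue and 0.232, 0.102 and 0.147 CPM in monolayers (log2 fold change -9.82, SE 0.303). Hao2, a peroxisomal hydroxyacid oxidase, held 299.8, 244 and 364 CPM in tissue and 0.507, 0.854 and 0.471 CPM in monolayers (log2 fold change -8.97, SE 0.58). For none of these genes did a monolayer library reach 1 CPM. The calcium channel Trpv6 at chr6:41620624-41636405 held 66.6, 37.6 and 53.8 CPM in tissue and 0, 0.0342 and 0.0589 CPM in monolayers. Best2, a bicarbonate channel of goblet cells, held 29.7, 30.1 and 47.1 CPM in tissue and 0, 0 and 0.118 CPM in monolayers. The secreted phospholipase Pla2g5 held 75.7, 65.7 and 81.4 CPM in tissue and 0.174, 0.0683 and 0.0883 CPM in monolayers. A4gnt, which caps mucin glycans, held 25.3, 28.3 and 16.2 CPM in tissue and 0, 0 and 0.0589 CPM in monolayers. Lrg1, a secreted glycoprotein, held 29.4, 13.7 and 22.2 CPM in tissue and 0.0290, 0.0342 and 0 CPM in monolayers. Their pooled ratios were 1135-fold (95% interval 443 to 4168) and 1063-fold (95% interval 415 to 3904). The monolayer counts of A4gnt and Best2 lay in library 3 alone. Without it the fitted log2 fold change of A4gnt moved from -10.03 to -13.69 and that of Best2 from -9.71 to -14.30, values against 0 counts that are no bound. That of Trpv6 moved from -10.66 to -11.63. The other falls among the 12 largest were in immune defence: Iigp1 and Tgtp1, interferon-inducible GTPases with pooled ratios of 604-fold (95% interval 423 to 896) and 412-fold (95% interval 229.8 to 825), the class II antigen chain H2-Aa, and the gasdermin Gsdmc2 (459.5, 526 and 456 CPM in tissue and 0.493, 1.30 and 1.65 CPM in monolayers).

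**Figure D1:**
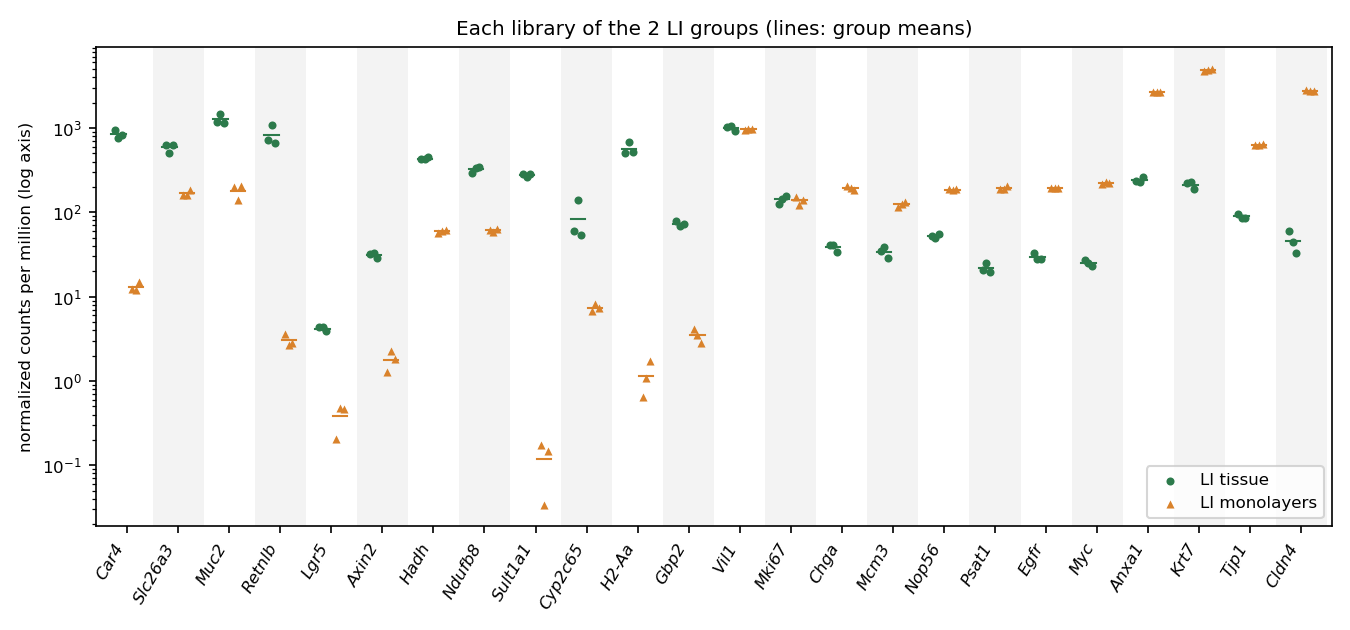
Level of selected genes in each LI library (CPM on a log10 axis), with LI tissue and LI monolayers as separate points and 3 libraries a group. Lines are group means. The groups stand apart for the called genes and overlap for Vil1 and Mki67, and Cyp2c65 is uneven in LI tissue, where library 2 stood at 138 CPM.

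Genes of ion and nutrient transport at the colonic surface fell. In this list, 0 of 24 tested members were called higher and 17 lower, with a median log2 fold change of -1.77. Car4, the membrane carbonic anhydrase, held 956, 754 and 837 CPM in tissue and 12.2, 11.9 and 15.1 CPM in monolayers (log2 fold change -6.02, SE 0.21). Slc9a3, the apical sodium-hydrogen exchanger NHE3, held 278, 236 and 212 CPM in tissue and 1.88, 2.54 and 2.83 CPM in monolayers (log2 fold change -6.65, SE 0.22). Hsd11b2, which shields the mineralocorticoid receptor from glucocorticoids, held 287, 257 and 328 CPM in tissue and 2.72, 1.91 and 2.03 CPM in monolayers (log2 fold change -7.02, SE 0.19). Car1, the cytosolic carbonic anhydrase of colonocytes, held 755, 3122 and 709 CPM in tissue and 39.4, 39.5 and 46.6 CPM in monolayers (log2 fold change -5.19, SE 0.97, adjusted p = 0.00128 by edgeR). The tissue libraries of Car1 were uneven, with library 2 the highest, and the monolayer libraries were all far below them. Without tissue library 2, the log2 fold change of Car1 was -4.13. Slc26a3 fell by 1.81 (SE 0.11) on the log2 scale, from the levels given above.

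Brush border genes moved both ways. In the list of the mature colonocyte surface and brush border, 5 of 27 tested members were called higher and 15 lower, with a median log2 fold change of -1.22. Krt20, the keratin of differentiated surface cells, held 1522, 1566 and 1187 CPM in tissue and 366, 363 and 336 CPM in monolayers (log2 fold change -2.01, SE 0.099). Dpep1, a dipeptidase, held 336, 369 and 275 CPM in tissue and 7.58, 8.38 and 7.53 CPM in monolayers (log2 fold change -5.38, SE 0.14). The serine protease Prss30 held 284, 261 and 226 CPM in tissue and 3.57, 3.28 and 3.74 CPM in monolayers. Among the risers, Cdhr2, an intermicrovillar cadherin, held 465, 474 and 416 CPM in tissue and 1278, 1329 and 1350.1 CPM in monolayers (log2 fold change 1.55, SE 0.098). Eps8, a capping protein of microvillar actin, held 218, 188 and 162 CPM in tissue and 603, 616 and 587 CPM in monolayers. Isx, an intestine-specific homeobox factor, held 22.5, 30.4 and 18.2 CPM in tissue and 81.8, 82.3 and 85.7 CPM in monolayers. The members named here as higher include parts of the microvillus, and those named as lower are a keratin and enzymes. Vil1 was not called (log2 fold change -0.05, SE 0.11, adjusted p = 0.675 by edgeR).

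Goblet cell genes fell almost throughout. In this list, 0 of 22 tested members were called higher and 20 lower, with a median log2 fold change of -2.87. The gel-forming mucin Muc2 held 1181, 1470.2 and 1144 CPM in tissue and 202, 139 and 203 CPM in monolayers (log2 fold change -2.80, SE 0.18). Retnlb, a secreted resistin-like defence peptide, held 715, 1097 and 669.8 CPM in tissue and 3.65, 2.698 and 2.80 CPM in monolayers (log2 fold change -8.08, SE 0.69). The secreted ribonuclease Ang4 held 430.2, 901 and 410.1 CPM in tissue and 6.06, 9.27 and 10.5 CPM in monolayers (log2 fold change -6.08, SE 0.69). For both Retnlb and Ang4, every monolayer library was below every tissue library. The goblet cell regulator Spdef held 95.3, 110.3 and 81.7 CPM in tissue and 33.7, 30.2 and 29.8 CPM in monolayers (log2 fold change -1.62, SE 0.17). The trefoil peptide Tff3 held 766, 822 and 1020.1 CPM in tissue and 401, 387 and 419 CPM in monolayers (log2 fold change -1.11, SE 0.17). Tff3 was no longer called without tissue library 3 (-0.98) or with GC content and length trends removed (-0.75). In bulk RNA, fewer cells of a type and less RNA per cell cannot be told apart, which holds for this and every cell type list below. Deep crypt secretory cells, which stand beside the stem cells of the colon, gave a similar count: 1 of 12 tested members was called higher and 10 lower, with a median log2 fold change of -2.20. Kit, their receptor tyrosine kinase, held 46.1, 51.1 and 41.9 CPM in tissue and 8.35, 8.71 and 10.03 CPM in monolayers (log2 fold change -2.36, SE 0.11). Reg4 held 211, 179 and 381 CPM in tissue and 69.4, 64.7 and 60.05 CPM in monolayers (log2 fold change -1.99, SE 0.55, adjusted p = 0.0107 by edgeR). The lectin Mptx1 held 1772, 2915 and 3041 CPM in tissue and 318, 322 and 315 CPM in monolayers. The chloride channel Cftr held 102, 113 and 112 CPM in tissue and 16.7, 17.1 and 18.3 CPM in monolayers (log2 fold change -2.65, SE 0.07). Nupr1, a stress-induced chromatin protein, was the member called higher, with 106, 98.0 and 70.3 CPM in tissue and 532, 489.8 and 480.4 CPM in monolayers.

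Enteroendocrine genes rose in part. Among them, 10 of 24 tested members were called higher and 2 lower, with a median log2 fold change of 0.43. The granin Chga held 41.3, 41.5 and 34.0 CPM in tissue and 203, 193 and 182 CPM in monolayers (log2 fold change 2.31, SE 0.18). Its relative Chgb held 84.4, 87.9 and 66.0 CPM in tissue and 389.6, 363 and 352 CPM in monolayers (log2 fold change 2.21, SE 0.19). The hormone gene Cck held 3.89, 2.31 and 1.90 CPM in tissue and 44.5, 45.7 and 39.2 CPM in monolayers (log2 fold change 3.999, SE 0.303). Glucagon (Gcg) held 66.7, 56.0 and 60.3 CPM in tissue and 305, 285 and 253 CPM in monolayers. Tph1, the serotonin-making hydroxylase of enterochromaffin cells, held 14.3, 14.6 and 9.68 CPM in tissue and 54.1, 46.0 and 42.1 CPM in monolayers. All monolayer libraries stood above all tissue libraries for these hormone and granule genes. Neurog3, the factor of early endocrine progenitors, was lower, with 0.821, 0.928 and 0.404 CPM in tissue and 0.0725, 0.137 and 0.0883 CPM in monolayers and a pooled ratio of 7.36-fold (95% interval 4.57 to 12.6), and Neurod1, which acts after it, was not called (1.87, 2.20 and 1.30 CPM in tissue and 2.83, 3.19 and 3.19 CPM in monolayers; log2 fold change 0.78, or 1.20 and called with GC content and length trends removed). Gcg, Tph1 and Neurog3 were picked after their values were seen.

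Tuft cell genes fell as a group: 0 of 20 tested members were called higher and 18 lower, with a median log2 fold change of -3.13. Dclk1, the kinase that marks tuft cells, held 12.6, 16.2 and 10.6 CPM in tissue and 3.45, 3.36 and 3.77 CPM in monolayers (log2 fold change -1.90, SE 0.16). Trpm5, the cation channel of their taste-like signalling, held 16.2, 18.4 and 12.1 CPM in tissue and 1.22, 1.74 and 1.53 CPM in monolayers (log2 fold change -3.39, SE 0.19). Pou2f3, their lineage factor, held 1.66, 1.72 and 1.15 CPM in tissue and 0.145, 0.137 and 0.235 CPM in monolayers (log2 fold change -3.11, SE 0.26). No tuft cell member was called higher.

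Lgr5 and Axin2 fell, and some other genes of the stem cell and Wnt target list rose. In the list, 5 of 29 tested members were called higher and 10 lower, with a median log2 fold change of -0.58. Lgr5, the R-spondin receptor that marks crypt base stem cells, held 4.35, 4.35 and 3.86 CPM in tissue and 0.203, 0.478 and 0.471 CPM in monolayers (log2 fold change -3.45, SE 0.24). Its companion factor Ascl2 held 8.28, 7.77 and 9.05 CPM in tissue and 0, 0.205 and 0.147 CPM in monolayers, a pooled ratio of 74.4-fold (95% interval 49.0 to 119), and its fitted log2 fold change moved from -6.19 to -6.87 without monolayer library 2. Axin2, a feedback target of Wnt signalling, held 32.0, 33.1 and 28.9 CPM in tissue and 1.28, 2.25 and 1.81 CPM in monolayers (log2 fold change -4.15, SE 0.14). Smoc2, of stem cells, held 39.3, 36.2 and 45.8 CPM in tissue and 1.58, 1.88 and 2.41 CPM in monolayers (log2 fold change -4.37, SE 0.16). Each of these markers was low in every monolayer library, in a medium that held Wnt3a and R-spondin-1, whose part was not tested. Myc, a growth regulator and Wnt target, held 27.4, 24.8 and 23.1 CPM in tissue and 219, 228 and 224 CPM in monolayers (log2 fold change 3.15, SE 0.07). The adhesion receptor Cd44 held 21.98, 26.1 and 17.6 CPM in tissue and 118, 127 and 125 CPM in monolayers (log2 fold change 2.49, SE 0.14), so these members rose.

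Genes of the BMP response moved both ways, and Id1, Id3 and Smad6 fell. Over the list, 5 of 21 tested members were called higher and 7 lower, with a median log2 fold change of -0.095, and the sign of that median depended on the processing. Id1, a BMP-induced inhibitor of differentiation factors, held 218, 245 and 221 CPM in tissue and 33.2, 32.2 and 31.9 CPM in monolayers (log2 fold change -2.81, SE 0.08). Id3, of the same family, held 102, 141 and 116 CPM in tissue and 4.46, 4.08 and 3.71 CPM in monolayers (log2 fold change -4.87, SE 0.12). Smad6, the inhibitory Smad, held 24.3, 24.5 and 22.9 CPM in tissue and 0.435, 0.444 and 0.294 CPM in monolayers (log2 fold change -5.94, SE 0.17). The ligand gene Bmp3 held 8.63, 13.3 and 6.35 CPM in tissue and 71.1, 75.3 and 79.5 CPM in monolayers and rose (log2 fold change 2.996, SE 0.22). The medium contained a BMP receptor inhibitor at seeding and Noggin, a BMP antagonist, thereafter, while fresh crypts had none added. The part of these additions in the changes was not tested, and they cannot be told apart from the other differences between the groups.

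Genes of fetal-like repair and YAP targets rose nearly throughout. Of the list, 28 of 29 were called higher and 0 lower, with a median log2 fold change of 3.59. Its members were chosen with earlier results of these data known, so this count is a description and not a test. Ly6a (Sca-1), a surface protein of regenerating colon, held 775, 768 and 772 CPM in tissue and 2091, 2097 and 2076 CPM in monolayers (log2 fold change 1.44, SE 0.15). Anxa1, an annexin, held 235, 228 and 264 CPM in tissue and 2661, 2658 and 2688 CPM in monolayers (log2 fold change 3.46, SE 0.23). Clu, which marks injury-induced revival cells, held 26.3, 5.28 and 12.2 CPM in tissue and 153, 141 and 148 CPM in monolayers (log2 fold change 3.33, SE 0.48), with a log2 fold change of 4.075 without tissue library 1. Ly6a was already high in every tissue library, and its rise was below the median of the list. Ajuba, a LIM protein that restrains the Hippo kinases, held 6.03, 3.63 and 4.42 CPM in tissue and 410.3, 417 and 436 CPM in monolayers (log2 fold change 6.49, SE 0.17). Cldn4, a tight junction claudin, held 60.3, 44.7 and 32.7 CPM in tissue and 2822, 2758 and 2721 CPM in monolayers (log2 fold change 5.91, SE 0.27). Il1rn held 56.4, 43.1 and 54.0 CPM in tissue and 1121, 1181 and 1096 CPM in monolayers (log2 fold change 4.47, SE 0.25). Il1rn is the gene whose promoter with an AP-1 site is printed above.

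**Figure D2:**
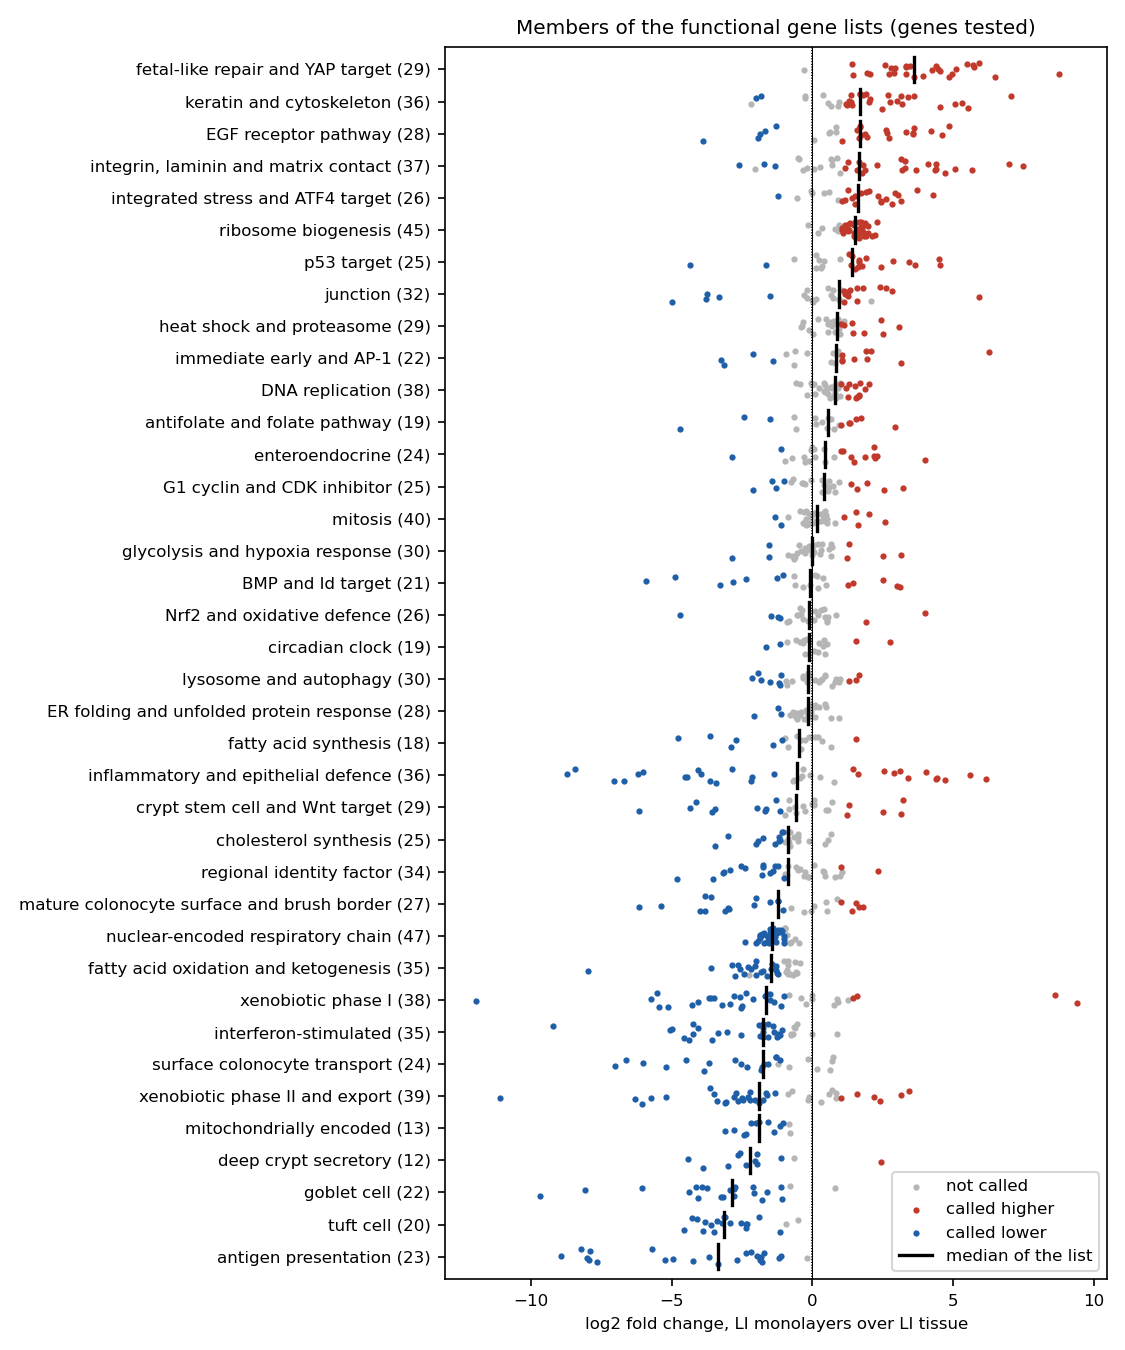
Log2 fold change (LI monolayers over LI tissue) of each tested member of the gene lists, 1 point a gene, coloured by its call, with the list median as a bar. The fetal-like repair list lies almost wholly to the right of 0, with a median of 3.59, and the antigen presentation list lies to the left of 0.

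The EGF receptor rose, as did most of its pathway list. In the pathway list, 18 of 28 tested members were called higher and 5 lower, with a median log2 fold change of 1.69. Egfr itself held 33.3, 28.2 and 27.9 CPM in tissue and 196, 194 and 196 CPM in monolayers (log2 fold change 2.71, SE 0.06, adjusted p = 5.62e-15 by edgeR). Its partner receptors were not called: Erbb2 held 177, 192 and 171 CPM in tissue and 182, 194 and 185 CPM in monolayers (log2 fold change 0.05, SE 0.06), with overlapping groups and a sign that varied with the processing, and Erbb3 held 192, 199.6 and 148 CPM in tissue and 274, 273 and 272 CPM in monolayers (log2 fold change 0.60, SE 0.09). The ligand gene Ereg held 1.96, 2.05 and 1.24 CPM in tissue and 49.5, 54.0 and 49.95 CPM in monolayers (log2 fold change 4.87, SE 0.23). Of the targets and feedback genes, Dusp5, an ERK phosphatase, held 7.23, 5.22 and 4.92 CPM in tissue and 105, 108 and 106 CPM in monolayers. Ier3, an ERK-induced survival gene, held 10.3, 8.91 and 8.32 CPM in tissue and 219, 217 and 232 CPM in monolayers. Lrig1, a feedback inhibitor that binds and reduces EGF receptors, fell, with 149, 139 and 150.1 CPM in tissue and 45.7, 45.5 and 45.9 CPM in monolayers (log2 fold change -1.67, SE 0.06). Its family member Lrig3 also fell, with 52.2, 57.1 and 64.0 CPM in tissue and 15.2, 13.95 and 15.6 CPM in monolayers. Etv5, an ERK-induced ETS factor, held 17.7, 16.8 and 12.6 CPM in tissue and 5.74, 6.32 and 6.97 CPM in monolayers and also fell (log2 fold change -1.31, SE 0.14). EGF was part of the culture medium, and its part in these changes was not tested.

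Among immediate early and AP-1 genes, 9 of 22 tested members were called higher and 4 lower, with a median log2 fold change of 0.84. Fos, Fosb and Jun, which respond within minutes to stimulation, were lower: Fos held 174, 181 and 186 CPM in tissue and 42.1, 39.9 and 41.6 CPM in monolayers (log2 fold change -2.13, SE 0.08). Jun held 194, 193 and 204 CPM in tissue and 74.1, 75.4 and 73.8 CPM in monolayers (log2 fold change -1.41, SE 0.05) and Fosb fell by 3.25 (SE 0.25) on the log2 scale. Fosl1, an AP-1 subunit of migrating cells, held 0.363, 0.186 and 0.170 CPM in tissue and 17.8, 18.4 and 20.2 CPM in monolayers (log2 fold change 6.29, SE 0.24). Maff held 20.6, 16.8 and 16.5 CPM in tissue and 72.9, 76.1 and 77.2 CPM in monolayers. Subunits of AP-1 thus moved in both directions. Klf4, a factor of differentiated surface cells, held 796, 795 and 774 CPM in tissue and 89.7, 87.9 and 92.0 CPM in monolayers and fell (log2 fold change -3.13, SE 0.08).

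Genes of DNA replication rose in part, and most mitotic genes were not called. In the DNA replication list, 12 of 38 tested members were called higher and 0 lower, with a median log2 fold change of 0.81. The share called, 31.6%, was below the background of 38.0%, while 14.5% of all tested genes were called higher. Mcm3 held 35.0, 38.3 and 28.4 CPM in tissue and 117, 124 and 131 CPM in monolayers (log2 fold change 1.87, SE 0.09). Mcm2 held 49.2, 52.8 and 41.1 CPM in tissue and 102, 106 and 119 CPM in monolayers (log2 fold change 1.19, SE 0.08). Cdc6, which loads the helicase, held 5.95, 6.93 and 5.82 CPM in tissue and 23.2, 25.8 and 26.1 CPM in monolayers (log2 fold change 2.01, SE 0.09). Mcm4 rose by 1.58 (SE 0.08). In the mitosis list, 5 of 40 tested members were called higher and 2 lower, with a median log2 fold change of 0.15, a share called below the background of 38.0%. Mki67 held 125, 144 and 158 CPM in tissue and 153, 122 and 141 CPM in monolayers, with overlapping groups and a log2 fold change of -0.04 (SE 0.08, adjusted p = 0.702 by edgeR). Top2a (0.41, SE 0.06) and Ccnb1 (0.43, SE 0.09) were not called. Within the list, Mybl2, a partner of the cell cycle complex DREAM, held 10.6, 11.98 and 8.31 CPM in tissue and 58.1, 58.4 and 69.0 CPM in monolayers, and anillin (Anln), of the cytokinetic ring, held 29.2, 30.1 and 33.7 CPM in tissue and 119, 127 and 127 CPM in monolayers. Cyclin B2 (Ccnb2) went the other way, with 74.6, 76.1 and 98.4 CPM in tissue and 32.1, 32.4 and 33.6 CPM in monolayers (log2 fold change -1.34, SE 0.09), as did the centromeric histone Cenpa (-1.13, SE 0.11). Neither call was firm: Ccnb2 fell under the fold required with GC content and length trends removed (-0.77), and Cenpa without tissue library 3 (-0.97). Without the same library, the log2 fold change of Mki67 turned to 0.046.

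Of G1 regulators, 5 of 25 tested members were called higher and 4 lower, with a median log2 fold change of 0.40. The share called, 36.0%, was near the background of 38.0%, so the genes named next do not speak for the list. Cyclin D1 (Ccnd1) held 75.1, 70.3 and 63.8 CPM in tissue and 255, 267 and 277 CPM in monolayers (log2 fold change 1.93, SE 0.097). Its kinase Cdk6 held 18.2, 17.8 and 12.9 CPM in tissue and 155, 147 and 156 CPM in monolayers (log2 fold change 3.23, SE 0.11). The CDK inhibitor Cdkn1b (p27) held 117, 118 and 111 CPM in tissue and 42.6, 44.3 and 40.6 CPM in monolayers and fell (log2 fold change -1.44, SE 0.05). Among targets of p53, 15 of 25 tested members were called higher and 2 lower, with a median log2 fold change of 1.41. The p53 inhibitor Mdm2 held 30.6, 32.4 and 29.0 CPM in tissue and 94.2, 93.5 and 93.5 CPM in monolayers. Bax, of apoptosis, held 32.8, 35.6 and 37.3 CPM in tissue and 92.4, 85.8 and 92.9 CPM in monolayers. Phlda3, an AKT inhibitor, held 2.72, 1.88 and 3.05 CPM in tissue and 56.4, 54.0 and 62.3 CPM in monolayers (log2 fold change 4.50, SE 0.14). The kinase gene Plk2 held 16.6, 13.5 and 13.0 CPM in tissue and 343, 339 and 323 CPM in monolayers (log2 fold change 4.54, SE 0.11). Cdkn1a (p21), the classical arrest gene of the pathway, was not called, with 337, 301 and 305 CPM in tissue and 377, 397 and 406 CPM in monolayers (log2 fold change 0.32, SE 0.06).

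Most genes of ribosome biogenesis rose. In the list, 38 of 45 tested members were called higher and 0 lower, with a median log2 fold change of 1.52, and the largest rise was 2.30. Nop56, of the box C/D particle that methylates ribosomal RNA, held 52.8, 49.5 and 55.2 CPM in tissue and 187, 185 and 187 CPM in monolayers (log2 fold change 1.83, SE 0.06). Utp4, of the small subunit processome, held 21.5, 19.0 and 24.3 CPM in tissue and 103, 108 and 107 CPM in monolayers (log2 fold change 2.30, SE 0.08). Mybbp1a, a nucleolar protein, held 92.6, 83.9 and 86.8 CPM in tissue and 375, 378 and 396 CPM in monolayers (log2 fold change 2.13, SE 0.06). Fibrillarin (Fbl), the methyltransferase of the same particle as Nop56, held 99.3, 109 and 98.9 CPM in tissue and 191, 189 and 212 CPM in monolayers and was just under the fold required (log2 fold change 0.95, SE 0.06), which it passed with GC content and length trends removed (1.21).

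Respiratory genes fell in both genomes. Of nuclear-encoded subunits, 0 of 47 tested members were called higher and 38 lower, with a median log2 fold change of -1.43. Ndufb8 of complex I held 294, 337 and 343 CPM in tissue and 61.8, 59.1 and 64.1 CPM in monolayers (log2 fold change -2.40, SE 0.07). Cox7b of complex IV held 384, 489 and 506 CPM in tissue and 117, 110.2 and 113 CPM in monolayers (log2 fold change -2.02, SE 0.08). For mitochondrially encoded genes, 0 of 13 tested members were called higher and 11 lower, with a median log2 fold change of -1.91. mt-Nd1 held 2047, 2292 and 2055 CPM in tissue and 685, 735 and 719.5 CPM in monolayers (log2 fold change -1.58, SE 0.23; -0.95 and not called with GC content and length trends removed), and mt-Cytb held 3033, 3242 and 3016 CPM in tissue and 606, 623 and 586 CPM in monolayers (log2 fold change -2.36, SE 0.23). Mitochondrial transcripts took 2.457% ± 0.18 of counts in LI tissue and 0.729% ± 0.0232 in LI monolayers (SD, n = 3 each). In an exact permutation test, two-sided, over these 6 libraries this gave p = 0.1, the smallest p that 3 against 3 can give. Mitochondrial transcripts also vary with RNA quality and cell damage, and the part of either in this result was not tested.

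Fatty acid oxidation and ketogenesis fell too: 0 of 35 tested members were called higher and 21 lower, with a median log2 fold change of -1.46. Hadh, of beta-oxidation, held 428, 426 and 447 CPM in tissue and 56.2, 60.3 and 62.2 CPM in monolayers (log2 fold change -2.86, SE 0.07). Acss2, which activates acetate, held 155, 154 and 165 CPM in tissue and 13.1, 12.3 and 13.3 CPM in monolayers (log2 fold change -3.61, SE 0.07). Cpt1a, which admits fatty acids to mitochondria, held 326, 316 and 321 CPM in tissue and 200.1, 185 and 168 CPM in monolayers and was not called (log2 fold change -0.80, SE 0.06). No member of the 3 mitochondrial and fatty acid lists was called higher.

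Cholesterol synthesis genes fell in part, and the fatty acid synthesis list did not stand out from the background. Of cholesterol synthesis genes, 0 of 25 tested members were called higher and 11 lower, with a median log2 fold change of -0.88. The share called was 44.0%, while 23.5% of all tested genes were called lower. Hmgcs1 held 345, 342 and 248 CPM in tissue and 124, 139.5 and 148 CPM in monolayers (log2 fold change -1.18, SE 0.13), and with GC content and length trends removed it was not called (-0.99). Dhcr7, the last step to cholesterol, held 112, 118 and 100.4 CPM in tissue and 12.7, 13.9 and 14.4 CPM in monolayers (log2 fold change -3.01, SE 0.09). Mvd, of the mevalonate pathway, held 109, 128 and 93.6 CPM in tissue and 25.05, 27.3 and 29.0 CPM in monolayers (log2 fold change -2.02, SE 0.12). Of fatty acid synthesis genes, 1 of 18 tested members was called higher and 6 lower, with a median log2 fold change of -0.48. Their share called, 38.9%, was near the background of 38.0%, so the genes named next do not speak for the list. The desaturase gene Fads2 held 397, 369.6 and 424 CPM in tissue and 12.8, 14.4 and 16.4 CPM in monolayers (log2 fold change -4.77, SE 0.11). Scd2, another desaturase, held 693, 846 and 839 CPM in tissue and 52.9, 58.0 and 81.0 CPM in monolayers (log2 fold change -3.63, SE 0.21). ATP citrate lyase (Acly) fell by 1.41 (SE 0.06), while malic enzyme (Me1) held 12.004, 22.03 and 10.4 CPM in tissue and 38.2, 43.0 and 47.6 CPM in monolayers and rose.

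Glycolysis and hypoxia genes gave 4 called higher and 3 lower of 30, a share below the background, with a median of -0.01. The glucose transporter Slc2a1 held 168, 145 and 140.3 CPM in tissue and 343, 357 and 363 CPM in monolayers (log2 fold change 1.23, SE 0.07). Enolase (Eno1) held 776, 803 and 736 CPM in tissue and 1781, 1878 and 1998 CPM in monolayers (log2 fold change 1.29, SE 0.07). Pfkfb3, which raises the flux through phosphofructokinase, held 4.76, 4.40 and 2.43 CPM in tissue and 35.1, 34.6 and 32.8 CPM in monolayers (log2 fold change 3.15, SE 0.18). Hk1, the hexokinase, held 269, 263 and 271 CPM in tissue and 242, 245 and 254 CPM in monolayers and was not called (log2 fold change -0.12, SE 0.05). Pdk1, which blocks pyruvate entry into mitochondria and is induced by hypoxia, held 84.1, 78.4 and 83.4 CPM in tissue and 12.2, 11.2 and 10.5 CPM in monolayers and fell (log2 fold change -2.86, SE 0.06).

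Enzymes of foreign compound metabolism fell in both phases. Of oxidising and hydrolysing (phase I) genes, 4 of 38 tested members were called higher and 25 lower, with a median log2 fold change of -1.66. Cyp2s1 held 128, 140.5 and 139 CPM in tissue and 7.99, 8.64 and 7.37 CPM in monolayers (log2 fold change -4.09, SE 0.07). The carboxylesterase Ces1f held 51.8, 68.2 and 47.1 CPM in tissue and 0.986, 1.79 and 0.883 CPM in monolayers (log2 fold change -5.53, SE 0.39). Cyp2c55 held 324, 631 and 221 CPM in tissue and 122, 127 and 132 CPM in monolayers (log2 fold change -1.63, SE 0.47, adjusted p = 0.0131 by edgeR). For Cyp2c55 and Cyp2c65 (59.6, 138 and 54.3 CPM in tissue and 6.75, 8.21 and 7.24 CPM in monolayers), tissue library 2 was the highest. Cyp2f2 held 6.69, 4.49 and 10.9 CPM in LI tissue and had 0 counts in all monolayer libraries, at least 158.7-fold lower against a floor of 3 counts per library. Cyp3a11, the main hepatic form of its family, was low in both groups and not called (1.10, 0.504 and 0.183 CPM in tissue and 0.899, 1.52 and 0.853 CPM in monolayers), although without tissue library 1 it was called higher (1.65). The aryl hydrocarbon receptor (Ahr) held 9.11, 8.99 and 8.31 CPM in tissue and 26.1, 25.7 and 27.0 CPM in monolayers and rose (log2 fold change 1.58, SE 0.07), and its target Cyp1a1 had 3 counts in LI tissue in all and held 11.5, 10.8 and 8.33 CPM in LI monolayers, a pooled ratio of 769.7-fold (95% interval 263 to 3736). Without tissue library 1 its fitted log2 fold change moved from 9.41 to 10.25. Cyp2f2 and Cyp1a1 were picked after their values were seen.

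Of conjugating (phase II) and export genes, 6 of 39 tested members were called higher and 24 lower, with a median log2 fold change of -1.90. The glutathione transferase Gsta3 held 44.3, 38.7 and 60.3 CPM in tissue and 0.609, 0.615 and 0.559 CPM in monolayers (log2 fold change -6.33, SE 0.35). Mgst1, its microsomal relative, held 155, 168 and 195 CPM in tissue and 2.90, 3.62 and 3.09 CPM in monolayers (log2 fold change -5.75, SE 0.11). The glucuronosyltransferase Ugt1a7c held 132, 153 and 141 CPM in tissue and 23.2, 27.5 and 24.9 CPM in monolayers (log2 fold change -2.50, SE 0.095). Against this trend, Gsta4, which clears lipid peroxidation products, held 40.5, 42.2 and 32.1 CPM in tissue and 325, 336 and 361 CPM in monolayers (log2 fold change 3.15, SE 0.198). The exporter Abcc4 held 16.4, 15.8 and 15.8 CPM in tissue and 84.1, 81.0 and 86.2 CPM in monolayers (log2 fold change 2.39, SE 0.06). In the folate pathway, which antifolate drugs enter, 6 of 19 tested members were called higher and 3 lower, with a median log2 fold change of 0.56. The share called was 47.4%, against 38.0% of all tested genes. The reduced folate carrier Slc19a1 held 15.05, 13.98 and 12.1 CPM in tissue and 31.9, 33.7 and 35.9 CPM in monolayers (log2 fold change 1.30, SE 0.105). The proton-coupled carrier Slc46a1 held 19.5, 12.9 and 21.4 CPM in tissue and 26.7, 29.0 and 28.7 CPM in monolayers and was not called (log2 fold change 0.65, SE 0.22). Mthfd2, the mitochondrial enzyme of proliferating cells, held 15.4, 13.5 and 8.74 CPM in tissue and 94.6, 94.3 and 95.6 CPM in monolayers (log2 fold change 2.92, SE 0.23). Aldh1l1, a cytosolic folate dehydrogenase, held 217, 194 and 229 CPM in tissue and 8.28, 8.59 and 7.71 CPM in monolayers (log2 fold change -4.70, SE 0.09). Ggh, which trims polyglutamates, held 284, 243 and 381 CPM in tissue and 107, 108 and 105 CPM in monolayers (log2 fold change -1.504, SE 0.23).

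Most genes of the integrated stress response rose, and few folding genes of the endoplasmic reticulum were called. ATF4 targets of the integrated stress response rose: 19 of 26 tested members were called higher and 1 lower, with a median log2 fold change of 1.63. Atf4 held 166, 177 and 175 CPM in tissue and 432, 408 and 401 CPM in monolayers (log2 fold change 1.26, SE 0.06). Chac1, which degrades glutathione, held 6.22, 2.65 and 2.19 CPM in tissue and 72.1, 70.5 and 72.4 CPM in monolayers (log2 fold change 4.28, SE 0.46, or 4.89 without tissue library 1). Psat1, of serine synthesis, held 20.6, 25.2 and 19.8 CPM in tissue and 188, 191 and 207 CPM in monolayers (log2 fold change 3.16, SE 0.12). The hormone gene Stc2 was the member called lower, with 33.0, 26.8 and 22.1 CPM in tissue and 11.2, 11.6 and 12.01 CPM in monolayers. Folding genes of the endoplasmic reticulum gave 3 calls, all lower, of 28, a share of 10.7% against the background of 38.0%. The chaperone Hspa5 (BiP), their usual readout, was not called (585, 649 and 629 CPM in tissue and 1015, 986 and 977 CPM in monolayers), and the translocon subunit Sec61b held 157, 193 and 208 CPM in tissue and 79.4, 77.0 and 79.3 CPM in monolayers (log2 fold change -1.24, SE 0.08). With GC content and length trends removed, Sec61b was not called (-0.88). Of heat shock and proteasome genes, 8 of 29 tested members were called higher and 0 lower, with a median log2 fold change of 0.89. The share called, 27.6%, was below the background of 38.0%, while 14.5% of all tested genes were called higher. The cytosolic chaperone Hsp90aa1 held 169, 182 and 187 CPM in tissue and 929.9, 957 and 1038 CPM in monolayers. Hsph1, a partner of Hsp70, held 19.5, 21.6 and 26.1 CPM in tissue and 170.2, 183 and 211 CPM in monolayers.

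Of Nrf2 and oxidative defence genes, 2 of 26 tested members were called higher and 4 lower, with a median log2 fold change of -0.11. The share called, 23.1%, was below the background of 38.0%. Haem oxygenase (Hmox1) held 3.80, 3.15 and 2.74 CPM in tissue and 51.7, 50.8 and 51.9 CPM in monolayers and rose (log2 fold change 3.99, SE 0.13). Nqo1, the usual Nrf2 target, held 44.2, 48.4 and 45.5 CPM in tissue and 18.6, 20.4 and 22.7 CPM in monolayers and fell (log2 fold change -1.16, SE 0.08). The fall of Nqo1 was under the fold required with GC content and length trends removed (-0.64). The carbonyl reductase Cbr3 held 115, 98.7 and 138 CPM in tissue and 3.65, 4.80 and 5.05 CPM in monolayers and fell (log2 fold change -4.71, SE 0.22). Of lysosome and autophagy genes, 3 of 30 tested members were called higher and 7 lower, with a median log2 fold change of -0.15. Here too the share called, 33.3%, was below the background. The sialidase Neu1 held 189.6, 222 and 217 CPM in tissue and 692, 655 and 656 CPM in monolayers. The hexosaminidase Hexa held 166, 159 and 187 CPM in tissue and 39.4, 38.2 and 37.0 CPM in monolayers (log2 fold change -2.16, SE 0.06). The membrane protein Lamp2 held 161, 163 and 164 CPM in tissue and 72.2, 71.8 and 71.0 CPM in monolayers.

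Most antigen presentation and interferon-stimulated genes fell. In the antigen presentation list, 0 of 23 tested members were called higher and 22 lower, with a median log2 fold change of -3.35. The class II chain H2-Ab1 held 925, 1171 and 878 CPM in tissue and 2.65, 2.82 and 4.41 CPM in monolayers (log2 fold change -8.23, SE 0.56). The chain H2-Aa held 502, 673 and 516 CPM in tissue and 0.638, 1.09 and 1.74 CPM in monolayers (log2 fold change -8.93, SE 0.75). The invariant chain Cd74 held 1285, 1621 and 1195 CPM in tissue and 4.15, 5.21 and 6.64 CPM in monolayers (log2 fold change -8.002, SE 0.54). Ciita, their master regulator, chosen after its value was seen, held 38.6, 43.7 and 32.5 CPM in tissue and 0.0870, 0.102 and 0.280 CPM in monolayers (log2 fold change -7.90, SE 0.80, or -8.72 without monolayer library 3). In the interferon-stimulated list, 0 of 35 tested members were called higher and 27 lower, with a median log2 fold change of -1.76. Iigp1 held 114, 84.9 and 80.4 CPM in tissue and 0.174, 0.171 and 0.118 CPM in monolayers. Gbp2, a guanylate-binding GTPase, held 79.1, 69.3 and 72.6 CPM in tissue and 4.09, 3.55 and 2.83 CPM in monolayers (log2 fold change -4.40, SE 0.28). Ifit2 held 54.6, 52.99 and 34.4 CPM in tissue and 2.35, 1.998 and 1.604 CPM in monolayers (log2 fold change -4.58, SE 0.36). Ifit1, whose promoter with an ISRE is printed above, held 62.9, 48.7 and 39.4 CPM in tissue and 24.6, 20.4 and 11.7 CPM in monolayers (log2 fold change -1.41, SE 0.26), which was not called with GC content and length trends removed (-0.99).

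Markers of immune cells moved with these genes. All 20 T cell and intraepithelial lymphocyte genes tested were called lower, and their summed level ranged over 73.2 to 101 CPM in LI tissue and 6.58 to 9.36 CPM in LI monolayers. Ptprc (CD45), found on all white blood cells, held 17.8, 13.7 and 14.1 CPM in tissue and 0.667, 0.990 and 0.647 CPM in monolayers (log2 fold change -4.32, SE 0.23). All 12 B and plasma cell genes were called lower, with sums of 79.3 to 381 CPM in LI tissue and 5.27 to 7.62 CPM in LI monolayers, and Igha held 50.4, 237 and 37.6 CPM in tissue and 2.49, 3.19 and 2.34 CPM in monolayers, highest in tissue library 2 (log2 fold change -5.35, or -4.05 without it). Of 19 myeloid and mast cell genes, 14 were lower and 2 higher, with sums of 285 to 342 CPM in LI tissue and 375 to 394 CPM in LI monolayers, to which the riser Mrc1 (1.64, 2.92 and 1.5003 CPM in tissue and 78.8, 72.7 and 64.5 CPM in monolayers) contributed. All 5 erythroid genes were lower, with sums of 66.4 to 72.9 CPM in LI tissue and 1.42 to 2.13 CPM in LI monolayers, and Hbb-bs held 31.9, 39.7 and 37.7 CPM in tissue and 0.841, 0.564 and 0.809 CPM in monolayers. None of the members tested in these 4 lists was at 0 in every monolayer library. Immune cells express class II and interferon-stimulated genes as well as epithelium does, and the part of these cells in the falls above was not tested.

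Mesenchymal genes gave 4 calls higher and 9 lower of 20, with sums of 359 to 391 CPM in LI tissue and 873 to 918 CPM in LI monolayers. Those sums were led by gelsolin (Gsn, 262, 244 and 279 CPM in tissue and 753, 789.7 and 824 CPM in monolayers), which epithelium also expresses, while vimentin (Vim) held 16.6, 15.2 and 12.4 CPM in tissue and 34.4, 34.7 and 31.1 CPM in monolayers. Endothelial genes summed to 11.2 to 12.3 CPM in LI tissue and 7.48 to 9.53 CPM in LI monolayers, and glial and neuronal genes to 19.4 to 34.6 CPM in LI tissue and 37.0 to 38.6 CPM in LI monolayers. Of pan-epithelial genes, 4 of 12 tested members were called higher and 1 lower, with a median log2 fold change of 0.19, with sums of 29510.0 to 30163 CPM in LI tissue and 42803 to 43872 CPM in LI monolayers. Their share called, 41.7%, was near the background of 38.0%. The small intestinal enterocyte and Paneth list gave 3 higher and 5 lower of 24, with overlapping sums of 511 to 808 CPM in LI tissue and 459 to 562 CPM in LI monolayers. Its share called, 33.3%, was below the background.

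**Figure D3:**
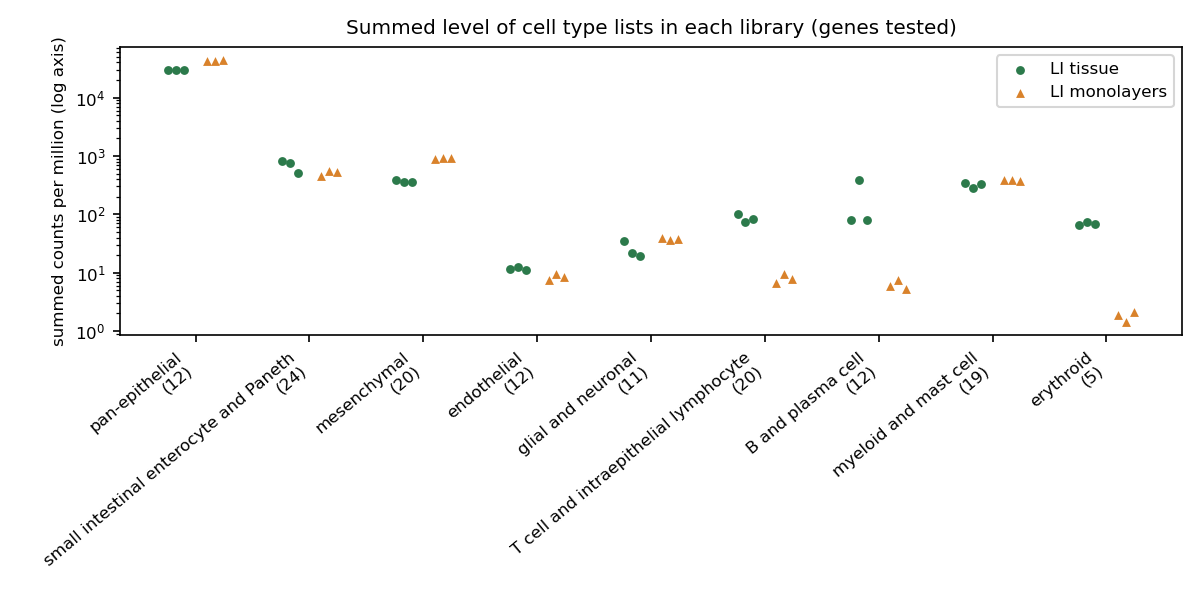
Summed CPM (log10 axis) of each cell type list in each LI library, 3 libraries of LI tissue and 3 of LI monolayers. T cell, B cell and erythroid sums stand lower in every monolayer library, and pan-epithelial sums stand higher.

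Inflammatory and epithelial defence genes split. In the list, 12 of 36 tested members were called higher and 16 lower, with a median log2 fold change of -0.55. The neutrophil-attracting chemokine Cxcl5 held 0.821, 0.689 and 1.19 CPM in tissue and 45.1, 44.3 and 42.5 CPM in monolayers (log2 fold change 5.61, SE 0.25). Cxcl16, a membrane-bound chemokine, held 5.75, 3.41 and 4.02 CPM in tissue and 319, 313 and 319 CPM in monolayers (log2 fold change 6.18, SE 0.18). Ptgs2, the inducible cyclooxygenase, held 4.98, 0.106 and 2.53 CPM in tissue and 60.8, 69.1 and 72.1 CPM in monolayers (log2 fold change 4.73, SE 0.73, or 5.67 without tissue library 1). Among the falls, the antibacterial lectin Reg3b held 711, 2389.6 and 719 CPM in tissue and 2.43, 13.3 and 12.8 CPM in monolayers (log2 fold change -7.07, SE 0.81). The gasdermin Gsdmc4 held 1183, 1176 and 1228 CPM in tissue and 1.10, 3.93 and 5.33 CPM in monolayers (log2 fold change -8.44, SE 0.89). Tissue library 2 was again the highest for Reg3b, whose log2 fold change without it was -6.24.

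Keratins and genes of the actin cytoskeleton mostly rose. In this list, 26 of 36 tested members were called higher and 2 lower, with a median log2 fold change of 1.69. Krt7, a keratin of simple ducts, held 221, 227 and 188 CPM in tissue and 4779, 4809.8 and 5037 CPM in monolayers (log2 fold change 4.52, SE 0.09). Krt18 held 569, 611 and 542 CPM in tissue and 3107, 3156 and 3186 CPM in monolayers (log2 fold change 2.46, SE 0.06). Krt80 held 1.05, 0.331 and 0.509 CPM in tissue and 82.1, 82.5 and 89.7 CPM in monolayers (log2 fold change 7.07, SE 0.26). Filamin A (Flna), which cross-links actin, held 35.8, 22.1 and 21.8 CPM in tissue and 1073, 1016 and 1073 CPM in monolayers (log2 fold change 5.31, SE 0.199). Beta-actin (Actb), often used as a reference gene, held 1948, 1688 and 1471 CPM in tissue and 4213, 4671 and 4592 CPM in monolayers (log2 fold change 1.40, SE 0.102). Actb was thus higher in every monolayer library than in any tissue library.

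Most genes of contact with the matrix rose, as did some of the junctions between cells. Among integrin, laminin and matrix contact genes, 22 of 37 tested members were called higher and 3 lower, with a median log2 fold change of 1.67. The tissue plasminogen activator Plat held 5.93, 1.11 and 2.22 CPM in tissue and 559, 542 and 542 CPM in monolayers (log2 fold change 7.47, SE 0.54, or 8.36 without tissue library 1). The laminin chain Lamc1 held 3.51, 4.16 and 3.34 CPM in tissue and 94.7, 94.0 and 99.8 CPM in monolayers (log2 fold change 4.71, SE 0.08). The collagen receptor subunit Itga2 held 52.0, 51.7 and 43.3 CPM in tissue and 236, 238 and 243 CPM in monolayers (log2 fold change 2.29, SE 0.07). The other collagen receptor subunit, Itga1, held 11.1, 10.98 and 11.7 CPM in tissue and 2.0001, 1.74 and 1.74 CPM in monolayers and fell (log2 fold change -2.62, SE 0.12). Among junction genes, 13 of 32 tested members were called higher and 5 lower, with a median log2 fold change of 0.93. The scaffold Tjp1 (ZO-1) held 95.1, 86.7 and 85.9 CPM in tissue and 633, 631 and 645 CPM in monolayers (log2 fold change 2.83, SE 0.06). Cingulin (Cgn) held 152, 153 and 148 CPM in tissue and 942, 922 and 911 CPM in monolayers (log2 fold change 2.62, SE 0.07). E-cadherin (Cdh1) held 1135, 1014 and 1060.4 CPM in tissue and 2205, 2334 and 2362 CPM in monolayers (log2 fold change 1.10, SE 0.06), which upper quartile scaling put just under the fold required (0.98). The pore-forming claudin Cldn2 held 182, 184 and 197 CPM in tissue and 6.15, 5.84 and 5.50 CPM in monolayers and fell (log2 fold change -5.01, SE 0.08, adjusted p = 9.34e-17 by edgeR), as did Cldn8 (163, 114 and 187 CPM in tissue and 12.5, 12.1 and 9.68 CPM in monolayers) and the connexin Gjb1 (101, 91.9 and 112 CPM in tissue and 7.68, 7.58 and 6.93 CPM in monolayers).

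Factors of regional identity fell in part. In the list, 2 of 34 tested members were called higher and 15 lower, with a median log2 fold change of -0.89. Cdx1, an intestinal homeobox factor, held 541, 517 and 658 CPM in tissue and 107, 111 and 108 CPM in monolayers (log2 fold change -2.40, SE 0.09). Cdx2 held 347, 353 and 272 CPM in tissue and 157, 162 and 164 CPM in monolayers (log2 fold change -1.01, SE 0.08). Cdx2 lay at the edge of the fold required and was not called without tissue library 1 (-0.96) or 2 (-0.94), or with GC content and length trends removed (-0.74). The vitamin D receptor Vdr held 309, 331 and 298 CPM in tissue and 34.9, 34.8 and 34.8 CPM in monolayers (log2 fold change -3.17, SE 0.06). Hoxb13 fell by 2.94 (SE 0.29) on the log2 scale. Clock genes were mostly not called, with 2 higher and 2 lower of 19, a share of 21.1% against the background of 38.0%. Arntl, the core activator, held 36.7, 37.0 and 37.5 CPM in tissue and 34.0, 36.1 and 32.0 CPM in monolayers. Cry1 held 20.6, 14.9 and 15.6 CPM in tissue and 50.02, 51.3 and 47.5 CPM in monolayers. Nr1d1 held 50.05, 44.9 and 47.5 CPM in tissue and 20.5, 21.4 and 22.7 CPM in monolayers, the last not called with GC content and length trends removed (-0.93). The time of day of sampling is not given in the labels.

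The difference between the LI and SI culture effects was tested for every gene, as the log2 fold change in LI minus that in SI. The 2 effects share no libraries, but they may share animals. For monolayers, the paper describes taking the large intestine from the mice that gave the small intestine. The main model had no term for shared animals. Of 19581 genes, 3909 (20.0%) were called, 1667 (8.51%) with a positive and 2242 (11.4%) with a negative difference. In SI itself, 5110 genes (26.1%) were called, 1902 (9.71%) higher and 3208 (16.4%) lower. In cholesterol synthesis, 22 of 25 members had a negative difference. The list's median was -0.88 in LI and 1.16 in SI, and Hmgcs1 differed by -2.36 (SE 0.18, adjusted p = 7.93e-07). Phase II and export genes had 26 of 39 members with a negative difference, with Gsta3 at -9.63 (SE 0.45, adjusted p = 1.34e-07). Goblet genes had 16 of 22, and glycolysis and hypoxia genes had 17 of 30. For these lists the share called is above the background of 11.4%.

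Of mitochondrially encoded genes, 13 of 13 had a positive difference, having fallen less in LI (median -1.91) than in SI (median -3.72). mt-Nd1 differed by 1.96 (SE 0.31, adjusted p = 0.000793). Integrin, laminin and matrix contact genes had 16 of 37, with Plat at 4.17 (SE 0.64, adjusted p = 0.000701). Enteroendocrine genes had 8 of 24, with Chga at 2.45 (SE 0.24, adjusted p = 2.26e-05). Lgr5 fell in LI but had a log2 fold change of 0.12 in SI, a difference of -3.58 (SE 0.296, adjusted p = 9.18e-08). Cldn2 held 116, 106 and 127 CPM in SI tissue and 387, 378 and 384 CPM in SI monolayers, so it fell in LI and rose in SI, a difference of -6.72 (SE 0.098, adjusted p = 3.16e-16). Of 45 ribosome biogenesis genes, 0 were called with a positive and 1 with a negative difference, although differences under the fold required, such as 0.72 (SE 0.08, adjusted p = 1.88e-06) for Mybbp1a, also passed the adjusted p. The list had medians of 1.52 in LI and 1.09 in SI. LI crypts alone were isolated with the enzymes named above, so region and isolation cannot be told apart in these differences.

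**Figure D4:**
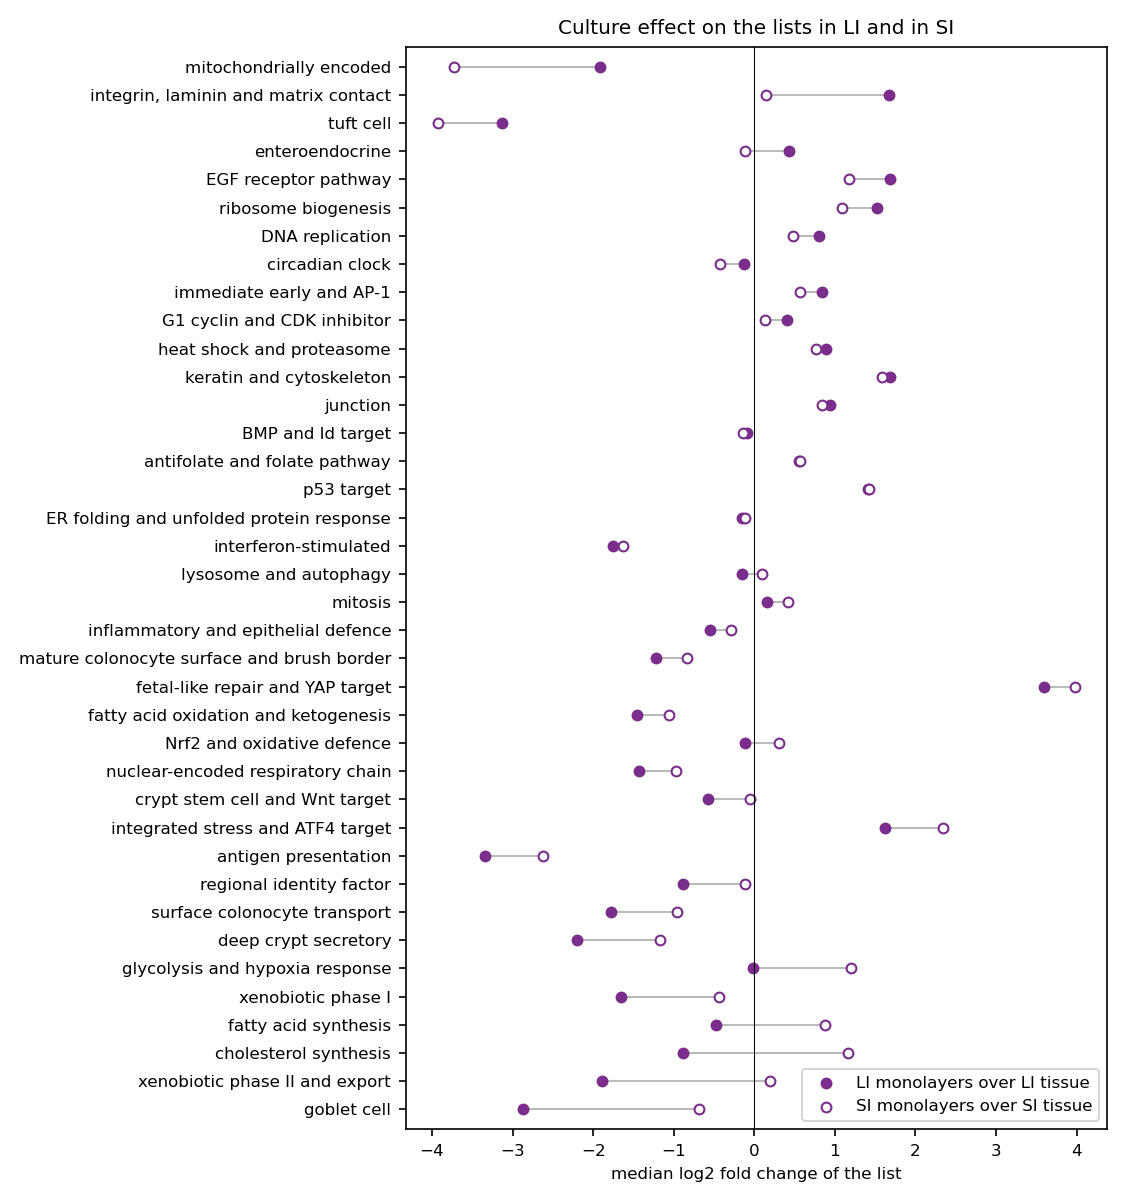
Median log2 fold change (monolayers over tissue, x axis) of each gene list (y axis), with a filled point for LI, an open point for SI and a grey line between them, without error bars. Cholesterol synthesis lies below 0 in LI (-0.88) and above 0 in SI (1.16), while the fetal-like repair list lies high in both.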

How the data were processed

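RNA from freshly isolated crypts and from monolayers was sequenced as paired-end Illumina HiSeq reads, which the authors aligned to GRCm38 with STAR 2.7.9a and counted on GENCODE vM25 genes with featureCounts 2.0.2, per the submitters' processing notes. The authors deposited these counts per gene without normalization, and all 12 count columns were mapped to a library by name. Whether both mates or the strand were counted is not given in the sources used here. A second deposited table of normalized signal was not used. Names and positions came from the GENCODE M21 annotation of GRCm38, which matched 55227 of 55487 genes.

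Counts were filtered (filterByExpr by group), scaled by TMM and tested with edgeR 4.0.16 (robust quasi-likelihood fits) in 1 model of 4 group means over 12 libraries, with Benjamini-Hochberg adjustment over all tested genes. SE is the absolute log2 fold change over the square root of F. The test was checked on simulated data. Shares of counts were compared by exact permutation tests with scipy 1.17.1. The median biological coefficient of variation was 0.127. No set test was run. Libraries of an LI group differed by 1.61 to 2.42 times the counting noise, computed on halved counts, as if both mates had been counted. None was therefore treated as a second deposit of another. That does not show separate cultures.

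The members and gene lists were chosen with earlier results of these data known. Genes were named if they were among the 12 largest rises or falls of called protein-coding genes with at least 10 mean CPM and no overlap; were the first 3 of a list, or up to 3 largest called rises or falls in it; or were measured by the study. Exceptions are stated in the text, and a few items named by this rule are not reported here. Promoter motifs were searched on both strands. Alternatives were DESeq2 1.42.0, upper quartile, DESeq2 size factor and total count scaling, other filters and folds, LI libraries alone, GC content and length trends removed, a replicate block, and each LI library left out.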

Additional observations from a re-analysis of the deposited data

Results flagged for a closer look

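The culture effect of LI differed from that of SI in 3909 of 19581 genes by edgeR's quasi-likelihood test of the difference itself, with Benjamini-Hochberg adjustment. Of the 205 genes read in detail, many chosen for a large change in LI, 125 were called. Some of these, chosen after their values were seen, are given here with the difference (LI minus SI, log2).

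Lower in LI than in SI were the effects on Gsta3, -9.63 (SE 0.45, adjusted p = 1.34e-07), Hao2, -8.35 (SE 1.04, adjusted p = 0.000204), and Nox1, -7.68 (SE 0.45, adjusted p = 2.88e-07). The same held for Cbr3, -7.80 (SE 0.31, adjusted p = 2.31e-08), Scd2, -7.78 (SE 0.305, adjusted p = 3.91e-08), and Stc2, -7.18 (SE 0.23, adjusted p = 1.17e-11). The sizes for Hao2 and Nox1 are uncertain. Hao2 held 1.26, 0.463 and 1.32 CPM in SI tissue and 0.933, 1.005 and 0.0279 CPM in SI monolayers, the last under the floor of 3 counts. Nox1 held only 0.232, 0.102 and 0.147 CPM in LI monolayers. Cbr3 held 4.198, 4.03 and 6.77 CPM in SI tissue and 41.7, 44.3 and 42.6 CPM in SI monolayers, Scd2 held 72.3, 82.7 and 113 CPM in SI tissue and 1570.4, 1601 and 1603 CPM in SI monolayers, and Stc2 held 0.367, 0.339 and 0.498 CPM in SI tissue and 21.6, 27.1 and 26.1 CPM in SI monolayers, so that these genes fell in LI and rose in SI. Cldn2, of the tight junction, differed by -6.72 (SE 0.098, adjusted p = 3.16e-16), and Car1, of colonocytes, by -5.96 (SE 1.37, adjusted p = 0.00713). Car1 was low in SI and uneven in its monolayers, with 2.31, 2.59 and 1.49 CPM in SI tissue and 8.63, 1.90 and 0.390 CPM in SI monolayers. The stem cell gene Lgr5 differed by -3.58 (SE 0.296, adjusted p = 9.18e-08), the repair gene Ly6a by -2.94 (SE 0.22, adjusted p = 1.48e-06), Hmgcs1 of cholesterol synthesis by -2.36 (SE 0.18, adjusted p = 7.93e-07), and the immediate early gene Fos by -2.15 (SE 0.11, adjusted p = 7.11e-10). Ly6a rose in both regions, and its smaller rise in LI went with 17.3, 20.9 and 11.8 CPM in SI tissue and 341, 333 and 361 CPM in SI monolayers.

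Higher in LI than in SI were the effects on Aldh1a3, 5.34 (SE 0.46, adjusted p = 1.64e-05), Plat, 4.17 (SE 0.64, adjusted p = 0.000701), Chga, 2.45 (SE 0.24, adjusted p = 2.26e-05), and mt-Nd1, 1.96 (SE 0.31, adjusted p = 0.000793). mt-Nd1 fell in both regions, with 10911, 6920.0 and 5345 CPM in SI tissue and 706, 700.1 and 584 CPM in SI monolayers. Chga held 117, 85.2 and 68.1 CPM in SI tissue and 78.5, 79.8 and 86.4 CPM in SI monolayers, so that its rise in LI had no called counterpart in SI. The difference was also called for Sult1a1, Best2, Trpv6, Cyp2f2, Calcb, Tgm7 and Cyp1a1, but at least 1 group of each lay near the floor and its size is not given. Best2 held 0, 0.123 and 0.117 CPM in SI tissue and 0.175, 0.0815 and 0.0279 CPM in SI monolayers, and Cyp1a1 held 4.13, 12.1 and 5.68 CPM in SI tissue and 1.23, 0.760 and 0.697 CPM in SI monolayers. Groups of 3 libraries were not examined for outlying samples.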

How the results depend on the processing

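With no minimum fold change, 13445 genes were called in LI (6279 higher, 7166 lower) and 9069 for the difference from SI (4510 higher, 4559 lower). Where a change of 2 or more on the log2 scale was asked for, 3644 were called (1016 higher, 2628 lower). With at least 10 counts in every library, 4797 were called, 2831 of them lower; this filter tests fewer genes, 14385. Under the other alternatives the counts of called genes stayed within 1.5 times those reported. Leaving out each LI library gave 7266 to 7505 called genes, 2491 to 2935 higher and 4473 to 4830 lower, and 3674 to 3997 for the difference (1282 to 1815 higher, 2147 to 2476 lower). Upper quartile scaling moved the median of all genes to -0.171 and removal of GC content and length trends moved it to 0.148, with 48.4% of calls higher in place of 38.1%; changes smaller than such shifts have no fixed direction. A replicate block gave 7367 called genes (2815 higher, 4552 lower) and 3807 for the difference. Deviations of same-numbered LI tissue and LI monolayer libraries correlated by -0.052 to -0.003. Such values show no pairing by number but cannot exclude one, and LI was not checked against SI. The block result is given only here.

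Of 205 genes read in detail, 16 changed their call and 5 their sign under some alternative, and 3019 of 3047 values kept both. With GC content and length trends removed, Epcam and Vil1 turned to 0.1225 and 0.2935. Erbb2, near 0 throughout, gave -0.064 with upper quartile scaling, -0.024 with at least 10 counts in every library, and -0.042 and -0.013 without monolayer library 2 and 3. With each library left out, Acta2 ranged from -1.14 to 0.7061, Erbb2 from -0.042 to 0.1024 and Mki67 from -0.1764 to 0.046. Of the list medians in LI recomputed under the alternatives, 183 moved by more than their spread over the libraries and 521 did not. Medians of the BMP and Id target, ER folding, Nrf2, glycolysis, lysosome and endothelial lists changed sign under some alternative and give no direction. The cause of these changes was not tested. Depth limits genes near 0.039 to 0.051 CPM, and of the genes named with a group near that limit only a ratio with its counting interval is known.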

Other observations

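The genes in this section were chosen after their values were seen. Several rises belong to the cornified envelope, the cross-linked protein shell of stratified epithelia such as skin. Of 20 tested genes of a list put together after the rise of Lor was seen, 11 were called higher and 4 lower by edgeR, with a median log2 fold change of 1.09 in LI and 1.71 in SI. Sprr1a, a small proline-rich envelope protein, held 16.7, 11.5 and 7.79 CPM in LI tissue and 619, 658 and 642 CPM in LI monolayers. Periplakin (Ppl), which links the envelope to keratins, held 8.99, 8.32 and 8.30 CPM in LI tissue and 169, 177 and 187 CPM in LI monolayers, and Tgm1, the transglutaminase that cross-links it, held 0.754, 0.133 and 0.352 CPM in LI tissue and 25.4, 24.6 and 29.8 CPM in LI monolayers. Envoplakin (Evpl), the partner of periplakin, held 74.5, 66.3 and 66.2 CPM in LI tissue and 67.8, 66.1 and 76.8 CPM in LI monolayers and was not called. The list was chosen for its members' rise, so these counts are a description.

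Genes were also grouped into families by the stem of their symbols, with 8 or more tested protein-coding members. Some families moved as blocks and others did not, and those given here were picked by their counts. Over all tested genes, 14.5% were called higher and 23.5% lower. All 14 Ces carboxylesterase genes were called lower in LI (median -4.61), against 6 lower and 2 higher in SI (median -0.94). All 11 Apol genes, interferon-inducible apolipoproteins, were lower (median -3.78), as were all 9 Gbp genes (median -4.06) and all 8 Muc mucin genes (median -1.95). Of 14 Ugt glucuronosyltransferase genes, 11 were lower and 0 higher. Of 9 Cxcl chemokine genes, 6 were higher and 2 lower, with a median of 4.03. Of 50 Rpl ribosomal protein genes, 0 were called higher and 1 lower, and of 34 Rps genes, without the Rps6k kinases, 1 was higher and 1 lower. Of 53 replication-dependent and other histone genes (Hist), 0 were called higher and 34 lower (median -1.32). Most of these histone messages carry no poly(A) tail, and the part of transcript capture in their values was not tested.

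Of immunoglobulin variable segments, 102 of 122 tested were called lower and 0 higher, and of T cell receptor variable segments, 8 of 14 were lower and 0 higher. Antisense genes were lower in 233 (40.4%) and higher in 42 (7.28%) of 577 tested, and lincRNA genes lower in 257 (41.9%) and higher in 80 (13.1%) of 613. Over all tested genes these shares were 23.5% lower and 14.5% higher. Their annotated classes are those of GENCODE M21, and without knowledge of strand use an antisense gene cannot be told apart from its partner.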
